A study of Mus musculus with 48 samples.

Results

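The genes described here encode lysosomal enzymes and lysosomal membrane proteins. The set was a fixed list of 37 symbols, all found by Ensembl identifier among the 25913 genes of the count tables. It holds 5 sulfatases, 10 glycosidases, 1 acetyltransferase, 8 proteases, 4 lipid hydrolases, 4 lipid activators and transfer proteins, and 5 membrane proteins. The question put to it was whether the low level of Arsb, a sulfatase, in white fat of mice whose diet was switched late in life was shared by other lysosomal genes.

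RNA-seq counts came from 22 libraries of white adipose tissue (WAT), 20 of brown adipose tissue (BAT) and 6 of liver, all from female mice of the C3B6F1 hybrid with no engineered allele named. The study asked whether earlier diet limits how old mice respond to dietary restriction. Fully fed (AL) mice were compared with mice on dietary restriction (DR), set at 60% of AL intake. In ALDR mice full feeding gave way to restriction, and in DRAL mice restriction gave way to full feeding.

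DR mice were restricted from 12 weeks of age on, and diets of the old switched mice were exchanged at 24 months. Old mice carry the label 26 months, although a protocol gives 27 months as their age at death. Young mice were 5 months old, and their ALDR group had spent 2 months on restriction. WAT had 3 libraries each of AL and DR at 26 months, 5 each of ALDR and DRAL at 26 months, and 3 each of AL and ALDR at 5 months. For BAT the numbers were equal apart from DRAL, with 3 libraries. The liver libraries were 3 of ALDR and 3 of DRAL, at 26 months. The dissection protocol names epididymal fat for female mice, so the depot is uncertain, and p-values measure the spread between libraries taken as separate mice.

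Lysosomes are acidic organelles in which hydrolases break down material from endocytosis, phagocytosis and autophagy. Most soluble hydrolases reach them by the mannose 6-phosphate sorting route, and a vacuolar proton pump keeps the lumen acidic. Many lysosomal genes carry E-box motifs near their start that the transcription factors TFEB and TFE3 bind, and in adipose tissue macrophages are rich in lysosomes alongside adipocytes. Loss of single members of the set causes lysosomal storage diseases.

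The promoter sequences are shown because genes of this set that moved in opposite directions in WAT share such a motif. RefSeq promoters (GRCm38.p6) were held for 32 of the 37 genes, and the 250 bases before each start were searched on both strands. The palindrome CACGTG occurred in 12 of the 32 genes (37.5%) and in 1854 of 27025 genes with a promoter (6.86%). The longer motif GTCACGTGA, which contains CACGTG, occurred in 5 of the 32 (15.6%) and in 192 of all (0.7105%). The windows below are 30 bases long on the strand of the gene, and capitals mark the match; the first 5 hold the longer motif and the last 3 the shorter one.
Cln3: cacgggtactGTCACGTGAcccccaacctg
Ctsa: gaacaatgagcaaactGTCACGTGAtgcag
Ctsd: cgcccgcgtcTCACGTGACccgttgagggc
Gla: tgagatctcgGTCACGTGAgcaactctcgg
Mcoln1: ggcgccccgcTCACGTGACcgcggcgcatg
Naglu: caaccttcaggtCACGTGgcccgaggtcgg
Sgsh: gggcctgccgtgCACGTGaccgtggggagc
Glb1: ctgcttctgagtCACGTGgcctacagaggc

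These windows lie at chr7:126583340-126583369 on the minus strand for Cln3, chr2:164833743-164833772 on the plus strand for Ctsa, and chr7:142387907-142387936 on the minus strand for Ctsd. Those of Gla and Mcoln1 lie at chrX:134601182-134601211 on the minus strand and chr8:3500463-3500492 on the plus strand. The window of Naglu is chr11:101070009-101070038 on the plus strand, that of Sgsh chr11:119355522-119355551 on the minus strand, and that of Glb1 chr9:114401018-114401047 on the plus strand. By GENCODE M21, the windows of Gla and Glb1 lie upstream of the gene. Those of Naglu and Sgsh cross its start, and those of Cln3, Ctsa, Ctsd and Mcoln1 overlap a noncoding part of an exon of at least 1 transcript. A match describes letters only.

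Arsb (ENSMUSG00000042082, chr13:93771630-93943016, plus strand) had no CACGTG in its window, which says only that these letters are absent there. The 201 bases before its GENCODE start, chr13:93771429-93771629 on the plus strand, are printed because the question turns on this gene.
Arsb: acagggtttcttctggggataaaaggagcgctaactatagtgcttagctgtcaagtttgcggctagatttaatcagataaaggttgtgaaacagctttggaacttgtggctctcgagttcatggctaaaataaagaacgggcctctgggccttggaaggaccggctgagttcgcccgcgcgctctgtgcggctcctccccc

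Library totals were 12247161 to 22500246 counts in WAT, 6075585 to 19349912 in BAT and 14678489 to 22893099 in liver. A floor of 3 counts therefore stood for 0.133 to 0.245, 0.155 to 0.494 and 0.131 to 0.204 CPM (counts scaled to a fixed library total), which covers counting error only. Adipocyte markers summed to 15055 CPM or more in every WAT library and 8 brown adipocyte markers to 4625 CPM or more in every BAT library. In liver, 8 hepatocyte markers summed to 61122 CPM or more. Some fat libraries also held RNA of other tissues. The 8 skeletal muscle markers summed to 354 to 14855 CPM in the WAT DR libraries and 20.7 to 51.3 CPM in WAT DRAL. Hepatocyte scores, the mean log2 CPM of 8 markers, stood at 6.53 to 7.01 in 3 WAT libraries, 1 each of old AL, young AL and old ALDR. Fits without the libraries with other-tissue markers left out only those with the highest such scores. They kept a WAT DR library with a muscle score of 5.07 and BAT libraries with muscle scores up to 7.39. In liver, 4 of the 6 libraries held 11 to 20 counts of 4 Y-linked genes although all mice are labelled female, and 9 mitochondrial genes had 0 counts in the liver table.

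All 37 genes passed the filter on low counts in each tissue. They took 0.985 to 1.87% of counts in WAT, 0.680 to 0.843% in BAT and 0.414 to 0.487% in liver. Per kilobase of exon, Ctsd, the aspartic protease cathepsin D, was the most abundant in all 3 tissues, with a mean of 1249 CPM per kilobase in WAT, 604 in BAT and 198 in liver. In WAT it was followed by Psap (710 CPM per kilobase), the precursor of the saposins that help sphingolipid hydrolases, by Ctsb (459), a cysteine protease, and by Lamp1 (319), an abundant glycoprotein of the lysosomal membrane. Arsb ranked 29th of 37 in WAT (10.8 CPM per kilobase), 25th in BAT (7.29) and 35th in liver (0.69). WAT and liver libraries were made from RNA depleted of ribosomal RNA and BAT libraries from polyadenylated RNA, so levels are not compared between tissues.

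Arsb encodes arylsulfatase B, which removes sulfate from dermatan and chondroitin sulfate. In WAT at 26 months it measured 76.4, 130 and 106 CPM in the 3 AL libraries and 135, 109 and 92.1 CPM in the 3 DR libraries. The 5 ALDR libraries held 26.1, 26.8, 28.9, 27.1 and 23.6 CPM, and the 5 DRAL libraries 32.7, 32.2, 32.3, 30.3 and 27 CPM. Every switched library was below every unswitched one of that age. At 5 months the AL libraries held 56, 46.3 and 68 CPM and the ALDR libraries 45.4, 45.3 and 87.6 CPM, so the young groups overlapped each other. All 6 young libraries were above all 10 switched ones.

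**Figure D1:**
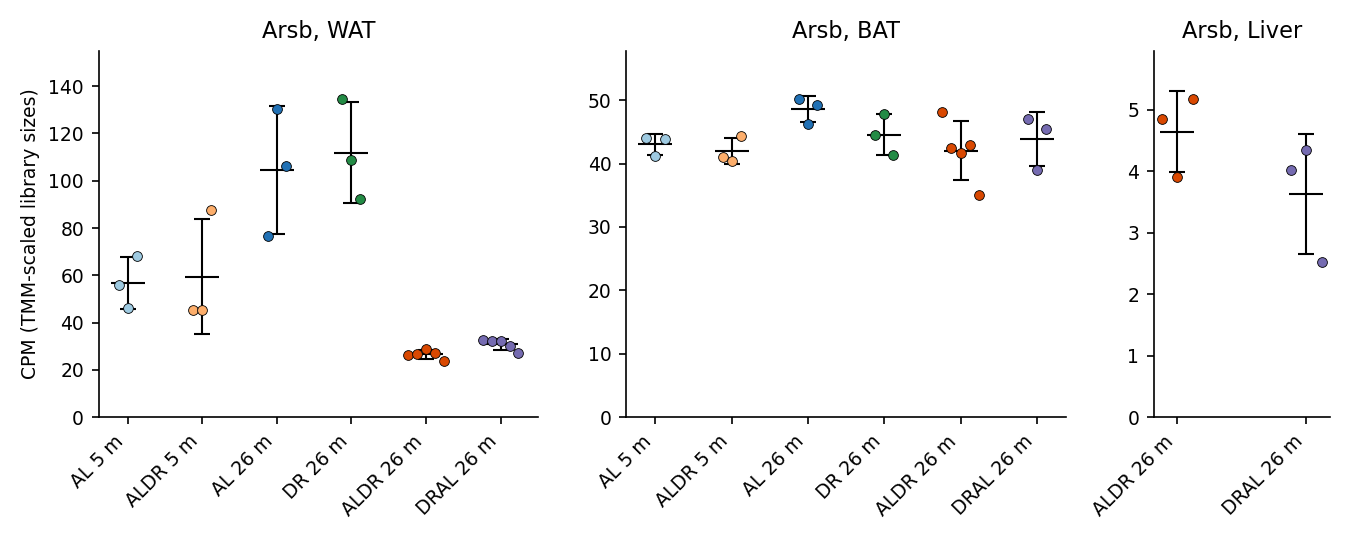
Arsb level in CPM on the y axis for each library (points) of the WAT, BAT and liver groups on the x axis, with the group mean and SD as bars. In WAT the 10 ALDR and DRAL libraries at 26 months lie between 23.6 and 32.7 CPM, below all AL and DR libraries of that age, while in BAT the groups overlap.

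Because Arsb was chosen for this pattern, its WAT values at 26 months are a description without a test. Its log2 fold change was -1.98 ± 0.20 (SE) for ALDR against AL, -2.08 ± 0.20 for ALDR against DR, -1.86 ± 0.19 for DRAL against DR and -1.76 ± 0.19 for DRAL against AL. The mean of the switched groups minus that of the unswitched groups was -1.92 ± 0.14, and it stayed between -2.17 and -1.82 over 25 fits. With the macrophage score as a covariate it was -1.99, and without the 7 WAT libraries with other-tissue markers it was -2.17. In BAT, which the choice did not use, all libraries lay between 35 and 50.3 CPM. The BAT difference between switched and unswitched groups was -0.11 ± 0.07 and missed the threshold (edgeR adjusted p = 0.58). Liver Arsb was 4.85, 3.9 and 5.18 CPM in ALDR and 4.02, 4.34 and 2.52 CPM in DRAL, whose difference missed the threshold (adjusted p = 0.34).

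None of the other 36 genes fell as far in these groups. Their switched minus unswitched log2 differences in WAT ran from -0.46 to 0.28 with a median of -0.03, beside a median of 0.005 over all 15828 genes tested. Of the 37, 2 were called (edgeR quasi-likelihood test, Benjamini-Hochberg adjusted p under 0.05), both lower, and 2.15% of all genes were called (1.19% lower and 0.96% higher). Arsb is among them by choice, and the other was Mcoln1, the calcium channel mucolipin-1 of the lysosomal membrane, at -0.24 ± 0.06 (adjusted p = 0.045). The Mcoln1 call held in 5 of 24 alternative fits. The next in size, Npc1, which exports cholesterol from lysosomes, stood at -0.46 ± 0.13 and missed the threshold (adjusted p = 0.072). The other sulfatases measured 0.05 ± 0.06 (Arsa, which acts on sulfatides), -0.01 ± 0.10 (Galns, which acts on keratan sulfate), -0.08 ± 0.08 (Sgsh) and -0.18 ± 0.10 (Ids), both of the heparan sulfate pathway. In BAT 0 of 37 were called in this comparison by edgeR, 3 at an unadjusted p under 0.05 and 2 by DESeq2, and 0.0361% of all genes were called.

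**Figure D2:**
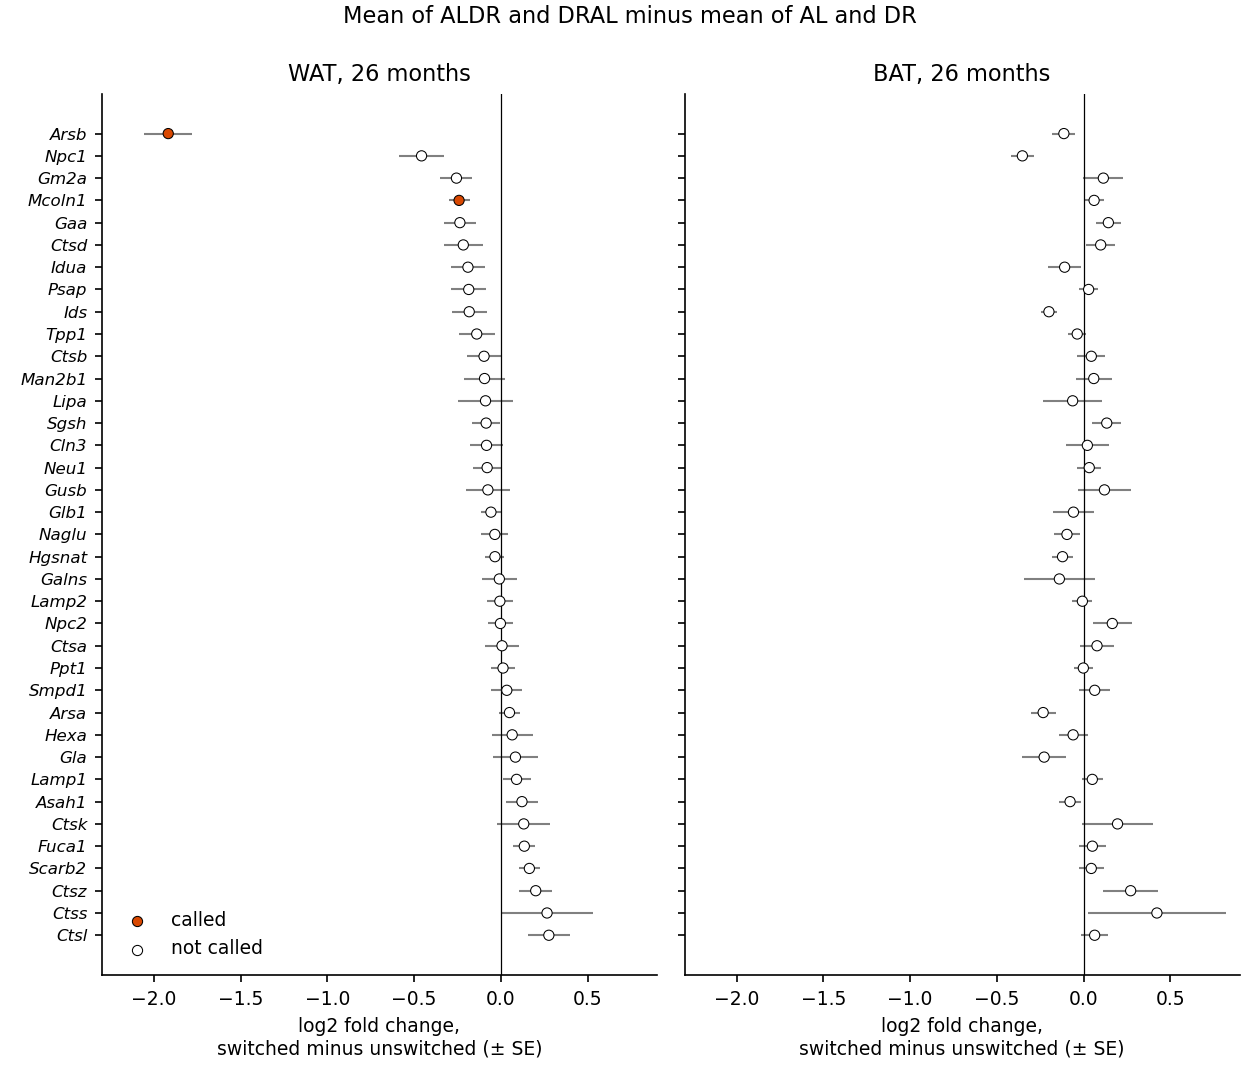
Log2 fold change of the mean of ALDR and DRAL minus the mean of AL and DR at 26 months (x axis, bars are SE) for each of the 37 genes (y axis, ordered by the WAT value) in WAT and BAT, with filled points for called genes. Arsb at -1.92 in WAT stands apart from the other 36 genes, which lie between -0.46 and 0.28.

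The genes whose log2 CPM over the 22 WAT libraries was most like Arsb were found outside the set. Xkrx, a membrane protein of the XK-related family, had the highest Pearson r (0.950), followed by Lig4 (0.887), a DNA ligase, Pfdn2 (0.864), a prefoldin subunit, Clec3b (0.809), the plasma protein tetranectin, and Atp6v0c (0.794), a membrane subunit of the vacuolar proton pump. These correlations describe libraries that share groups. Xkrx averaged 36.6 ± 10.1 CPM (SD, n = 3) in AL and 50.1 ± 14 CPM (n = 3) in DR at 26 months, against 0.436 ± 0.299 CPM (n = 5) in ALDR and 0.576 ± 0.288 CPM (n = 5) in DRAL. Among the set the highest r with Arsb was that of Gaa (0.476), acid alpha-glucosidase, and the lowest that of Scarb2 (-0.471), the receptor that carries glucocerebrosidase to the lysosome.

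Lifelong restriction in WAT went with lower levels of many of these enzymes. Of the 37 genes, DR mice at 26 months had 15 lower and 2 higher than AL mice, where 26% of all genes tested were called (12.5% lower and 13.5% higher). Their median log2 fold change was -0.23, beside -0.001 over all genes. Glycosidases fell in 6 of 10 cases (median -0.38), proteases in 4 of 8 (-0.51), lipid hydrolases in 2 of 4 (-0.35) and sulfatases in 1 of 5 (-0.08). Of 4 lipid activators and transfer proteins 1 was lower, with a median of 0.08. Of 5 membrane proteins 1 was lower and 1 higher (-0.20).

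Among the proteases, Ctsk, cathepsin K, which degrades collagen, measured 67.3, 60.9 and 86.5 CPM in AL and 16.3, 26 and 18.8 CPM in DR, a log2 fold change of -1.81 ± 0.25 (adjusted p = 5.5e-05). Ctss, cathepsin S, which processes the invariant chain in antigen-presenting cells, measured 291, 388 and 584 CPM in AL and 93.4, 42.3 and 30.9 CPM in DR (-2.92 ± 0.44, adjusted p = 0.00012). It was the largest fall among the 37 genes. Ctsz, a carboxypeptidase, fell from 302, 287 and 445 CPM to 208, 188 and 170 CPM (-0.87 ± 0.15). Ctsa, which protects Glb1 and Neu1 in a complex, fell by 0.73 on the log2 scale. Ctsd, the most abundant protease, did not pass the test. It stood at 1908, 1874 and 3489 CPM in AL and 3294, 2538 and 2939 CPM in DR (0.27, adjusted p = 0.28), and its groups overlapped.

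Lipa, the acid lipase that splits cholesteryl esters and triglycerides, measured 209, 233 and 425 CPM in AL and 94.3, 90.7 and 79.6 CPM in DR (-1.71 ± 0.26, adjusted p = 0.00013). Man2b1, the lysosomal alpha-mannosidase, fell from 229, 320 and 346 CPM to 142, 146 and 109 CPM (-1.17 ± 0.19, adjusted p = 0.00022). In both genes every DR library was below every AL library. Gla, the alpha-galactosidase that acts on globotriaosylceramide, fell from 17, 17.9 and 29.2 CPM to 11.6, 9.42 and 8.47 CPM (-1.12 ± 0.20). Gusb, beta-glucuronidase, fell by 1.09 and Hexa, the alpha subunit of hexosaminidase A, by 0.91 on the log2 scale. The smaller falls were those of Psap (-0.83), Cln3 (-0.61), a membrane protein, Sgsh (-0.53), Asah1 (-0.48), the acid ceramidase, Naglu (-0.43), which acts on heparan sulfate, and Glb1 (-0.33), the beta-galactosidase.

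The 2 genes that rose encode membrane proteins. Mcoln1 measured 24.5, 25.3 and 30.1 CPM in AL and 32.9, 34.5 and 35.8 CPM in DR (0.37 ± 0.10, adjusted p = 0.0081). Hgsnat, the acetyltransferase of heparan sulfate breakdown, measured 56.6, 55.7 and 56.2 CPM in AL and 66.3, 75 and 58.6 CPM in DR (0.25 ± 0.09, adjusted p = 0.042). The Hgsnat call held in 4 of 14 alternative fits, with adjusted p up to 0.44. Genes with a promoter motif were found in both directions. Of the 12 genes with CACGTG, 6 were lower and 1 higher, and of the 20 searched without it, 8 were lower and 0 higher. Mcoln1 rose and Gla, Ctsa and Cln3 fell, although all carry the longer motif.

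**Figure D3:**
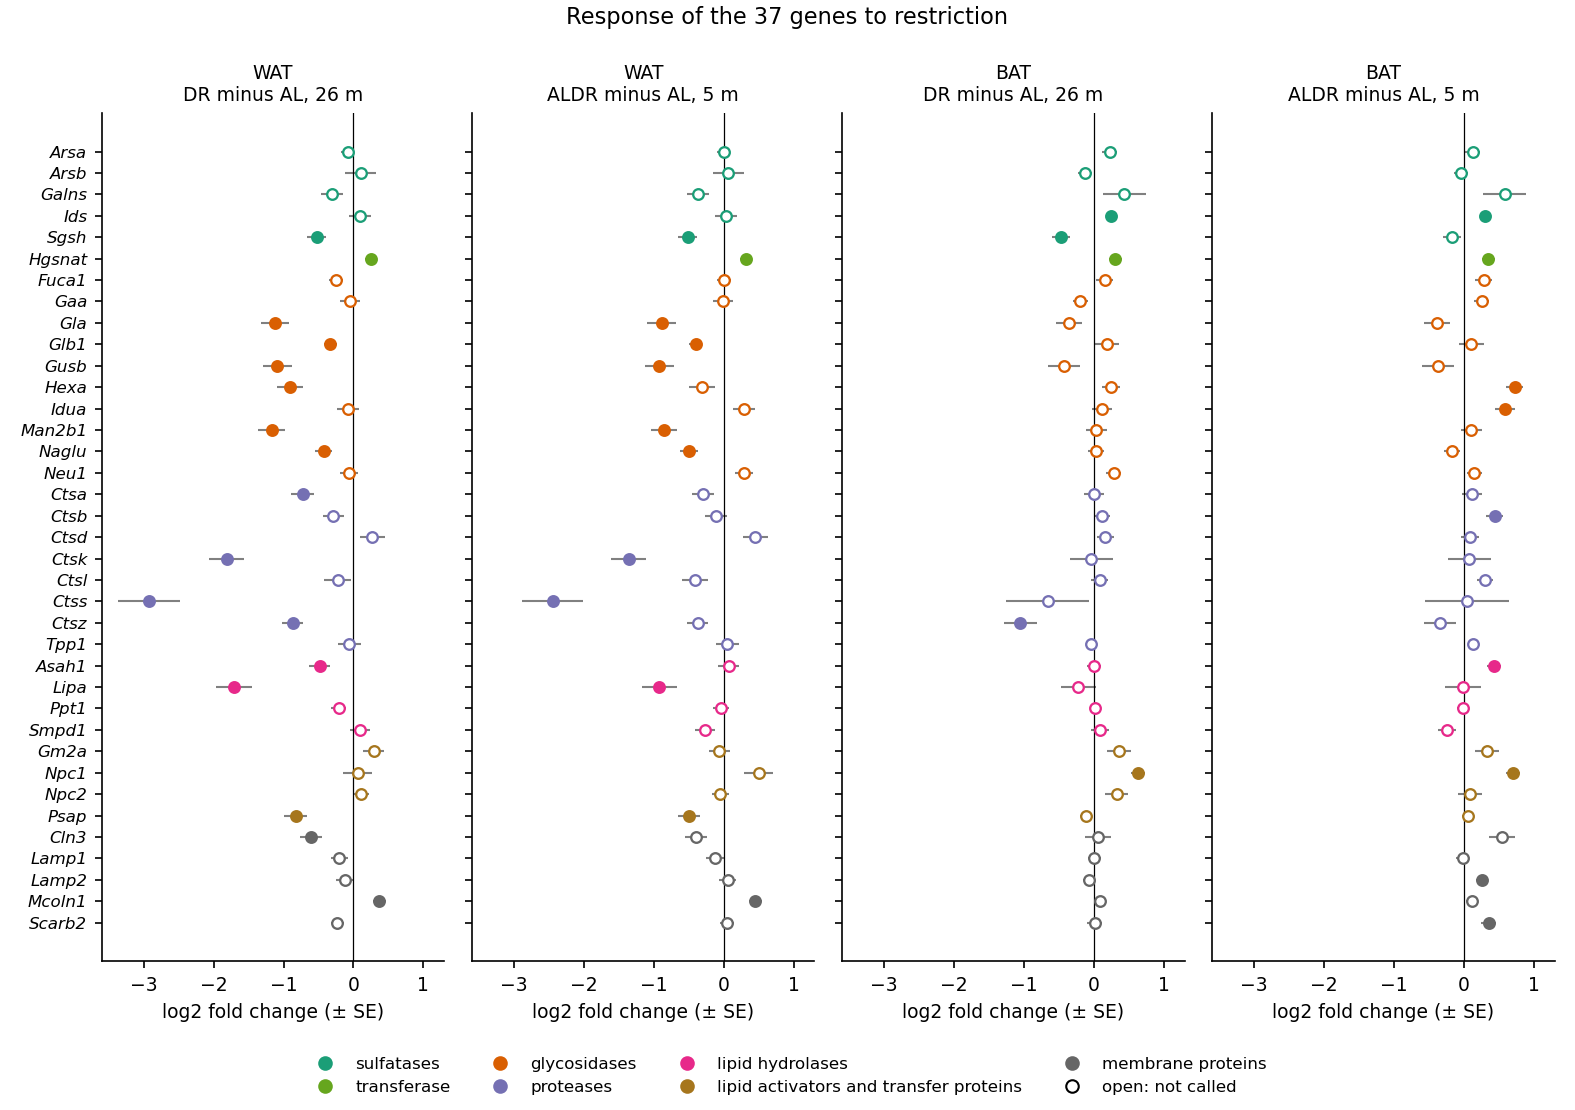
Log2 fold change (x axis, bars are SE) of the 37 genes (y axis, coloured and ordered by role) under restriction in WAT and BAT at 26 and 5 months, with filled points for called genes. In WAT most filled points lie left of 0, with Ctss at -2.92 and Ctsk at -1.81 at 26 months, while in young BAT all 9 filled points lie right of 0.

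Macrophage markers moved with these genes in WAT. Of 10 macrophage markers, 9 were lower and 1, Cd163, was higher in DR (median -1.83), and all 7 markers of lipid-associated macrophages were lower (median -3.44). Trem2, a lipid receptor of such cells, fell by 4.12 and Mmp12, a macrophage protease, by 7.31 on the log2 scale. The summed macrophage markers were 2411 to 3912 CPM in AL and 781 to 1106 CPM in DR. No macrophage marker was at 0. Cd68 in that list is itself a lysosomal membrane protein. In bulk tissue, fewer cells of a type and less RNA per cell cannot be told apart. With the macrophage score as a covariate 0 of 37 genes were called by edgeR (without it 19 had an unadjusted p under 0.05 and DESeq2 called 17), and 0.12% of all genes. The macrophage scores of the AL and DR libraries did not overlap. Skeletal muscle markers were also higher in DR (4 of 8 called, all higher, against 46.0 to 839 CPM summed in AL). Of 8 brown adipocyte markers 4 were higher, among them Elovl3 (6.27) and Ppargc1a (1.83), with sums of 40.1 to 79.0 CPM in AL and 129.9 to 132.1 CPM in DR, and of 8 adipocyte markers 5 were higher and 1 lower. Of 6 fibroblast markers 2 were lower, the collagens Col1a1 and Col3a1, with summed levels of 4937 to 6172 CPM in AL and 2769 to 3576 CPM in DR. The part of adipocytes and fibroblasts in the result was not tested. Of 7 immediate early and stress genes 3 were lower, among them Fos (-2.05). Of 9 genes of the mitochondrial genome 8 were higher in DR, with mt-Nd4 at 1.94, and their score averaged 6.60 in AL and 8.18 in DR. Their part in the result was not tested. With the muscle score as a covariate 10 genes were lower and 0 higher, while the share of all genes called fell to 12.35%. Without the libraries with the highest other-tissue scores 1 AL and 1 DR library were left, whose spread is then taken from the other groups. Ctsk stood at -1.92 in that fit, and the DR library kept still had a muscle score of 5.07.

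A lysosomal score, the mean log2 CPM of the 37 genes in a library, summarises the set. In WAT it averaged 7.07 ± 0.21 (SD, n = 3) in AL and 6.64 ± 0.10 (n = 3) in DR at 26 months, 6.79 ± 0.11 (n = 5) in ALDR and 6.75 ± 0.10 (n = 5) in DRAL. At 5 months it averaged 7.08 ± 0.09 (n = 3) in AL and 6.83 ± 0.02 (n = 3) in ALDR. The AL groups of both ages had the highest means and DR the lowest. The DR minus AL difference of -0.43 was -0.26 with the median over the genes in place of the mean, and the ALDR minus AL difference of -0.28 was -0.16 without AL library 3. Without Arsb the switched groups stood at 6.85 and 6.80, so their place between AL and DR did not rest on that gene. The macrophage score, the mean log2 CPM of the 10 markers, averaged 7.29 in AL, 6.72 in DRAL, 6.67 in ALDR and 5.68 in DR at 26 months.

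**Figure D4:**
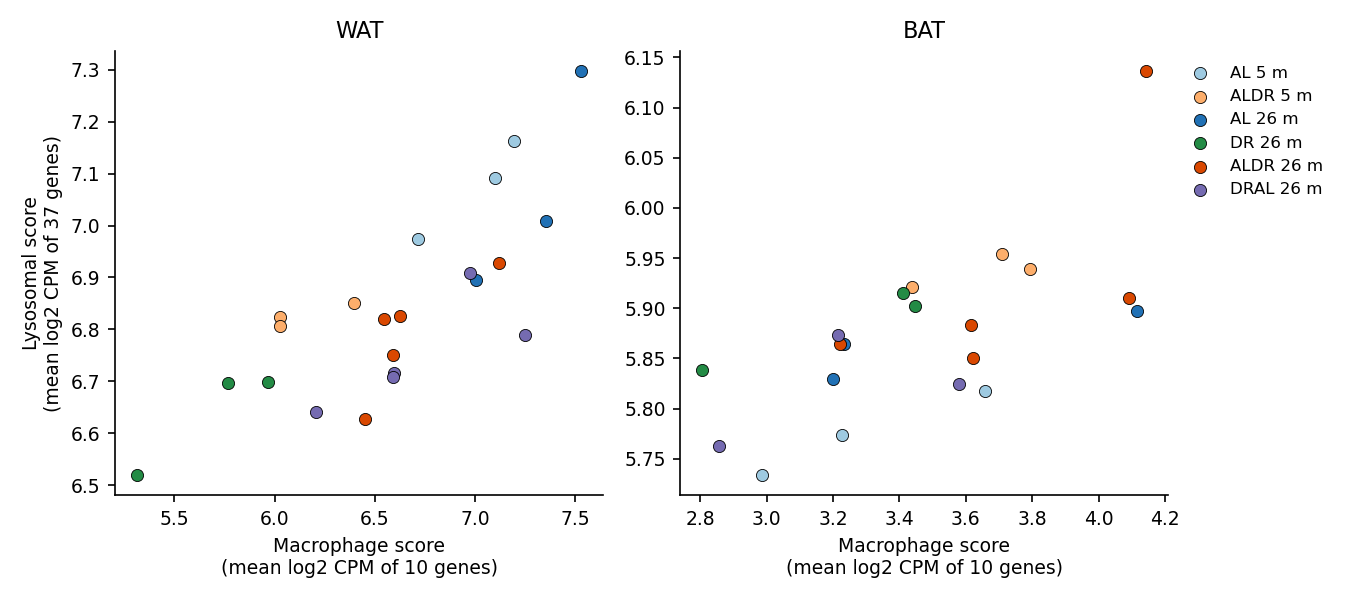
Lysosomal score (y axis, mean log2 CPM of 37 genes) against macrophage score (x axis, mean log2 CPM of 10 genes) for each WAT and BAT library, coloured by group. In WAT both scores are highest in 1 AL library and lowest in 1 DR library at 26 months, and in BAT 1 ALDR library stands at a lysosomal score of 6.14.

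In WAT of young mice, restriction for 2 months left 10 genes lower and 2 higher in ALDR mice than in AL mice, where 29.2% of all genes were called (14.4% lower and 14.8% higher). All 12 had also been called in the same direction in old DR mice, a share of 12 of 12 of the young list and 12 of 17 of the old one. Over all genes tested, 2717 were called in the same direction at both ages, 58.8% of the 4619 young calls and 66.04% of the 4114 old ones. Ctss fell from 397, 349 and 171 CPM to 51.1, 45.1 and 72.6 CPM (-2.44 ± 0.43, adjusted p = 0.00046). Ctsk fell from 72.5, 64.9 and 45.5 CPM to 25.4, 24.5 and 21.5 CPM (-1.36 ± 0.25, adjusted p = 0.00056). Neither pair of groups overlapped.

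Mcoln1 rose from 31, 30.3 and 29.5 CPM to 39.6, 45.6 and 39.4 CPM (0.46 ± 0.10, adjusted p = 0.0017), and Hgsnat rose by 0.32. Glb1, Man2b1, Gusb, Gla, Lipa, Sgsh, Naglu and Psap fell by 0.40 to 0.92 on the log2 scale. Macrophage markers were lower in 5 of 10 cases and lipid-associated markers in 6 of 7 (fibroblast markers in 2 of 6), with summed macrophage markers of 2080 to 3301 CPM in AL and 1246 to 1641 CPM in ALDR. The macrophage scores of the young groups did not overlap. Given the macrophage score as a covariate, 5 genes were higher and 2 lower, while 11.5% of all genes were called. Ctss and Naglu were then the 2 lower genes (-1.08 and -0.53), and Mcoln1 (0.41) and Hgsnat (0.39) were still among the higher ones. All 9 mitochondrial genes were higher in young ALDR mice, with mt-Nd4 at 1.94 and mt-Co3 at 1.85. Of 7 immediate early and stress genes Hspa1a (1.35) and Hspa1b (1.42) were higher and Atf3 (-1.69) was lower. Of 8 brown adipocyte markers Elovl3 (7.09) and Ppargc1a (1.32) were higher, and of 8 adipocyte markers 5 were higher and 1 lower. The part of these lists in the result was not tested. Skeletal muscle markers were low in both young groups (34.1 to 70.8 CPM). Without the libraries with other-tissue markers, 1 of them young, 9 genes were lower and 2 higher, beside 24.15% of all genes.

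Late restriction in WAT left 5 genes lower and 0 higher in old ALDR mice than in AL mice, where 4.36% of all genes were called (1.7% lower and 2.66% higher). Arsb is counted there by choice, and of the other 36 genes 4 were lower (11.1%). These were Gusb (-0.72 ± 0.18, adjusted p = 0.028), Man2b1 (-0.65 ± 0.16), Psap (-0.52 ± 0.14) and Glb1 (-0.33 ± 0.08). Gusb measured 80.2, 68.2 and 106 CPM in AL and 44.5, 52.1, 57.6, 50.2 and 53.1 CPM in ALDR. Glb1 measured 60.7, 60.3 and 71.9 CPM in AL and 50.3, 53.5, 55.1, 50 and 47.4 CPM in ALDR. In both genes the groups did not overlap, while those of Man2b1 did. Leaving out 1 library gave 1 to 6 calls, with 1 without AL library 3 or ALDR library 1 or 5, 2 without ALDR library 2 and 3 without AL library 1 or 2. These 4 genes were not called with the macrophage score as a covariate, with the compared groups alone, or without the libraries with other-tissue markers. The share of all genes called fell to 0.3285%, 1.168% and 0.02503% in these fits. The macrophage markers were lower in 1 of 10 cases (Mrc1, -0.63) and the fibroblast markers in 2 of 6, with summed fibroblast levels of 2533 to 3818 CPM in ALDR.

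Against DR, the late-restricted mice had 6 genes higher and 3 lower, where 12.8% of all genes were called (5.81% higher and 6.96% lower). Ctsk in ALDR measured 33.7, 47.3, 58.4, 55 and 42.7 CPM, between AL and DR (1.22 ± 0.23 against DR, adjusted p = 0.0022). Ctss measured 173, 152, 332, 179 and 195 CPM (1.89 ± 0.40, adjusted p = 0.005). Ctsz (0.69), Lipa (0.95), Gla (0.79) and Scarb2 (0.40) were the other higher genes. Beside Arsb, which is counted by choice, Mcoln1 (-0.33) and Gm2a (-0.48), the activator protein of ganglioside breakdown, were lower. Of the 36 genes other than Arsb 6 were thus higher and 2 lower (22.2%). Of 10 macrophage markers, 7 were higher than in DR and 0 lower, and the macrophage scores of the ALDR and DR libraries did not overlap. Of 7 lipid-associated macrophage markers 5 were higher, among them Mmp12 (5.62) and Trem2 (2.94), and of 8 brown adipocyte markers 3 were lower. The adipocyte markers called included Lep (2.13), higher, and Retn (-0.86) and Lipe (-0.49), lower. The endothelial markers Tek (0.45) and Pecam1 (0.47) were higher, and the fibroblast marker Pi16 (-1.25) was lower. Of 9 mitochondrial genes 7 were lower than in DR. The part of these genes and of the adipocyte, brown adipocyte, endothelial and fibroblast markers in the result was not tested. None of these 8 genes beside Arsb was called once the macrophage score was a covariate, or without the libraries with other-tissue markers, when 0.4423% and 0.9198% of all genes were called.

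After the return to full feeding DRAL exceeded DR in 11 of 37 genes and was lower in 3, where 30.5% of all genes were called (14.6% higher and 15.9% lower). Glycosidases were higher in 6 of 10 cases and proteases in 4 of 8. Ctsz rose to 240, 299, 296, 304 and 267 CPM (0.58 ± 0.14, adjusted p = 0.0043), above all DR libraries. Ctss rose to 116, 222, 128, 228 and 126 CPM (1.56 ± 0.39, adjusted p = 0.0061) and Ctsk to 31, 51.8, 34.2, 40.9 and 26.6 CPM (0.86 ± 0.22, adjusted p = 0.0079). Hexa and Gusb each rose by 0.57, and Ctsl, a cysteine protease, by 0.50 on the log2 scale.

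Mcoln1 was 26.2, 24.2, 23.1, 20.8 and 25 CPM in DRAL, below all DR libraries (-0.53 ± 0.08, adjusted p = 0.00024). Npc1 was 43.1, 44.4, 38, 32.3 and 38.1 CPM in DRAL and 59.1, 79.4 and 49.4 CPM in DR (-0.68 ± 0.18, adjusted p = 0.01). Arsb, counted by choice, was the other lower gene. Of the 36 genes without it 11 were higher and 2 lower (36.1%). Macrophage markers were higher in 8 of 10 cases, and all 8 skeletal muscle markers were lower. Fibroblast markers summed to 4803 to 7068 CPM in DRAL and 2769 to 3576 CPM in DR, with 1 of 6 called, Col3a1 (1.47). Of 9 mitochondrial genes 8 were lower. Of 7 lipid-associated macrophage markers 3 were higher, and of 8 brown adipocyte markers 3 were lower. The adipocyte markers called included Lep (3.01), higher, and Lipe (-0.83) and Pnpla2 (-1.43), lower. The endothelial marker Tek (0.53) and the Kupffer cell marker Timd4 (1.72) were higher, and the epithelial marker Cdh1 (-3.34) was lower. The part of adipocyte, brown adipocyte, fibroblast, endothelial, Kupffer cell and epithelial markers and of mitochondrial genes in the result was not tested. The 13 calls beside Arsb were lost with the macrophage score as a covariate, with the muscle score, and without the libraries with other-tissue markers, when 2.843%, 2.331% and 5.081% of all genes were called. Neither the macrophage scores nor the muscle scores of the DRAL and DR libraries overlapped, so these covariates cannot be told apart from the groups. Leaving out 1 library gave 7 to 15 calls, with 7 without DR library 2, 8 without DR library 3 or DRAL library 2 and 9 without DRAL library 3.

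Compared with mice fully fed throughout, DRAL mice had 5 genes lower and 0 higher, where 2.17% of all genes were called (1.28% lower and 0.891% higher). Without Arsb, which is counted by choice, 4 of 36 genes were lower (11.1%). These were Lipa (-1.12 ± 0.22, adjusted p = 0.016), Psap (-0.68 ± 0.14, adjusted p = 0.018), Ctsk (-0.96 ± 0.21) and Man2b1 (-0.71 ± 0.16). Lipa measured 119, 177, 117, 148 and 102 CPM in DRAL, all below the AL values of 209, 233 and 425 CPM. Psap measured 1493, 1937, 1612, 1404 and 1511 CPM in DRAL and 2104, 2283 and 3268 CPM in AL. DESeq2 called 10 genes, all lower, beside 6.104% of all genes. Leaving out 1 library gave 1 to 8, with 1 without AL library 3, 3 without AL library 2 or DRAL library 3 or 5, and 8 without DRAL library 2. Lipid-associated macrophage markers were lower in 6 of 7 cases. Of 10 other macrophage markers 2 were lower and 1, Cd163, was higher (1.08). Lipa, Psap, Ctsk and Man2b1 were not called given the macrophage score as a covariate, with the compared groups alone, or without the libraries with other-tissue markers. The share of all genes called was 0.2464%, 0.6727% and 1.201% in these fits. The comparisons of ALDR and DRAL with AL share the AL libraries, and those with DR share the DR libraries.

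ALDR and DRAL mice, compared directly, differed in 2 genes, where 12.3% of all genes were called (6.37% higher and 5.96% lower). Scarb2 was 169, 194, 198, 165 and 185 CPM in ALDR and 153, 162, 149, 167 and 138 CPM in DRAL (0.24 ± 0.08, adjusted p = 0.044). Npc2, which hands cholesterol to Npc1, was 487, 521, 557, 588 and 498 CPM in ALDR and 568, 711, 708, 694 and 623 CPM in DRAL (-0.32 ± 0.09, adjusted p = 0.03). Both pairs of groups overlapped. Fibroblast markers were lower in ALDR in 3 of 6 cases, among them Col3a1 (-1.43), with sums of 2533 to 3818 CPM against 4803 to 7068 CPM. Of 10 macrophage markers Mpeg1 was higher (0.96), and of 7 lipid-associated ones Atp6v0d2 (2.20) and Spp1 (1.97), while the Kupffer cell marker Timd4 was lower (-1.97). The lipid-associated macrophage score averaged 5.15 in ALDR and 3.77 in DRAL. The part of fibroblasts and of lipid-associated macrophages in the result was not tested. Of 8 skeletal muscle markers 7 were higher in ALDR, at 16.01 to 3244 CPM summed against 20.7 to 51.3 CPM. With 1 library left out there were 0 to 7 calls, with 0 without ALDR library 2 or 5 or DRAL library 2 or 3, and 7 without ALDR library 4. Neither Scarb2 nor Npc2 was called with the muscle score as a covariate, with the compared groups alone, or without the libraries with other-tissue markers. The share of all genes called was 3.886%, 9.197% and 2.997% in these fits.

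Age gave no call. Between AL mice of 26 and 5 months 0 of 37 genes were called in WAT by edgeR, with 9 at an unadjusted p under 0.05 and 5 called by DESeq2, and 0.114% of all genes were called. In the test of whether late restriction (ALDR against AL at 26 months) differed from early restriction (the same at 5 months), 1 gene was called, Arsb (-2.04), where 1.34% of all genes were called (0.67% in each direction). That contrast holds the values that chose Arsb, and it missed the threshold without the libraries with other-tissue markers (-2.19). The other 36 genes ran from -0.74 to 1.41 with a median of -0.02.

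In BAT lifelong restriction went with 3 genes higher and 2 lower, where 11.5% of all genes were called (5.99% higher and 5.52% lower). Npc1 measured 53.1, 57.4 and 59.2 CPM in AL and 93.7, 85.7 and 83.6 CPM in DR (0.63 ± 0.10, adjusted p = 0.001). Ids, the iduronate sulfatase, measured 35.4, 37.4 and 37.2 CPM in AL and 45.9, 42.5 and 42.1 CPM in DR (0.25 ± 0.07, adjusted p = 0.026). Hgsnat measured 34.6, 35.5 and 32.9 CPM in AL and 40.6, 43.4 and 43.4 CPM in DR (0.31 ± 0.09, adjusted p = 0.041). In these 3 genes every DR library was above every AL library.

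Ctsz fell from 285, 202 and 283 CPM to 121, 121 and 130 CPM (-1.05 ± 0.24, adjusted p = 0.0091), and Sgsh from 18.2, 22 and 21.3 CPM to 13.3, 15 and 16.1 CPM (-0.47 ± 0.13, adjusted p = 0.024). Hgsnat was higher, and Ctsz and Sgsh were lower, in WAT as well. The median over the 37 genes was 0.04, beside -0.007 over all genes. The BAT lysosomal score was 5.86 ± 0.03 (SD, n = 3) in AL and 5.89 ± 0.04 (n = 3) in DR, and the difference was 0.15 with the median over the genes in place of the mean. BAT macrophage markers summed to 143 to 290 CPM in AL and 102 to 173 CPM in DR, with 1 of 10 called (Mrc1, lower). Brown adipocyte markers summed to 6411 to 9201 CPM in AL and 4625 to 5501 CPM in DR (Ucp1 and Dio2 lower, Kcnk3 higher), and their part in the result was not tested. Skeletal muscle markers summed to 2.12 to 636 CPM in AL and 1067 to 4391 CPM in DR (0 of 8 called). With the muscle score as a covariate 2 of the 37 genes were called, 1 in each direction, beside 4.059% of all genes. Of 9 mitochondrial genes 4 were lower, with mt-Nd5 at -1.02, as were Fos (-2.73) of 7 immediate early and stress genes and Col1a1 (-0.81) of 6 fibroblast markers, and their part in the result was not tested. With 1 library left out there were 2 to 4 calls, with 2 without AL library 3 or DR library 1 and 3 without AL library 1 or 2 or DR library 2. The calls of Npc1 and Ctsz held in all 14 alternative fits, those of Ids and Sgsh in 9 each and that of Hgsnat in 3.

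In young BAT 9 genes were higher and 0 lower under restriction, where 14.4% of all genes were called (7.2% higher and 7.22% lower). Npc1 rose from 66.6, 51.7 and 49.7 CPM to 93.3, 88.7 and 90.7 CPM (0.70 ± 0.10, adjusted p = 0.00033). Hexa rose from 46.5, 56.2 and 52.5 CPM to 90.7, 81.9 and 84.3 CPM (0.73 ± 0.12, adjusted p = 0.0012). Both rises left no overlap between the groups. Ids rose from 32.1, 33 and 35 CPM to 40.1, 40.2 and 43.1 CPM (0.30 ± 0.07, adjusted p = 0.007). Asah1 rose from 26.6, 30.2 and 26.3 CPM to 38.1, 35.1 and 38.7 CPM (0.43 ± 0.10, adjusted p = 0.0072).

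Idua, the alpha-iduronidase of heparan and dermatan sulfate, rose from 12, 11.7 and 14.6 CPM to 20.2, 18.3 and 19.2 CPM (0.59 ± 0.14, adjusted p = 0.01), and Hgsnat from 30.6, 30.7 and 37 CPM to 44.1, 39.9 and 41.6 CPM (0.35 ± 0.09, adjusted p = 0.017). Ctsb (0.44), Scarb2 (0.35) and Lamp2 (0.26), a membrane protein needed for autophagy, were the others. Ids, Hgsnat and Npc1 were thus higher at both ages, 3 of the 9 young calls and 3 of the 5 old ones. Over all genes tested in BAT, 832 were called in the same direction at both ages. They made up 41.7% of the 1997 young calls and 52.2% of the 1594 old ones. The young score was 5.78 ± 0.04 (n = 3) in AL and 5.94 ± 0.02 (n = 3) in ALDR. Macrophage markers were higher in 1 of 10 cases (Cd163) and brown adipocyte markers summed to 7704 to 10275 CPM in AL and 4868 to 6629 CPM in ALDR. Of 9 mitochondrial genes 5 were lower, with mt-Nd5 at -1.05, and the nuclear RNA Neat1 was lower too (-0.55). Of 6 fibroblast markers 2 were higher, Pdgfra (0.63) and Dcn (0.58). The part of these lists in the result was not tested. With the macrophage score as a covariate 7 genes were called, all higher, beside 12.24% of all genes. With 1 library left out there were 4 to 7 calls, with 4 without ALDR library 1 and 5 without AL library 2.

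After the late switches, BAT of ALDR mice differed from AL in 0 of 37 genes by edgeR (7 at an unadjusted p under 0.05, 0 by DESeq2), where 1.3% of all genes were called. Against DR, Npc1 was lower in ALDR at 55.5, 65.6, 64.7, 59.1 and 58.1 CPM (-0.53 ± 0.09, adjusted p = 0.0029), with Ids (-0.26) and Arsa (-0.41) lower and Ctsz (0.87) higher, where 5.21% of all genes were called (1.94% higher and 3.27% lower). DRAL against DR gave lower Npc1 at 47.7, 51 and 51.8 CPM (-0.80 ± 0.10, adjusted p = 0.00027), lower Ids (-0.38) and Hgsnat (-0.32) and higher Sgsh (0.50), where 8.4% of all genes were called (3.47% higher and 4.93% lower).

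For ALDR against DR, Npc1 alone was called with the compared groups alone, beside 0.4717% of all genes. With 1 library left out there were 1 to 5 calls, with 1 without DR library 1 and 2 without DR library 2. For DRAL against DR there were 2 to 3, with 2 without DR library 1 or 2 or DRAL library 1 or 3. The Npc1 values of both switched groups lay below every DR library. Skeletal muscle markers summed to 1067 to 4391 CPM in DR, 8.35 to 568 CPM in DRAL and 413 to 6187 CPM in ALDR. With the muscle score as a covariate 2 genes, both lower, were called for DRAL against DR, and 4 for ALDR against DR, beside 2.701% and 4.543% of all genes. The brown adipocyte markers Ucp1 and Dio2 were higher than in DR in DRAL (1.37 and 2.17) and in ALDR (1.43 and 2.55), and their part in the result was not tested. DRAL against AL and ALDR against DRAL gave 0 calls by edgeR (2 and 8 at an unadjusted p under 0.05, 0 and 2 by DESeq2), where 0% and 2.02% of all genes were called. Age and the age difference in the restriction response gave 0 calls too (2 and 7 at an unadjusted p under 0.05, 0 and 2 by DESeq2), where 0.0795% and 0.0144% were called.

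Liver allowed 1 comparison, late restriction against the return to full feeding, with 3 libraries each. Here 9 genes were higher and 2 lower in ALDR than in DRAL, where 23.8% of all genes were called (10.9% higher and 12.9% lower). The median over the 37 genes was 0.22, beside -0.005 over all. Npc1 measured 168, 175 and 158 CPM in ALDR and 78.5, 84.7 and 70 CPM in DRAL (1.11 ± 0.11, adjusted p = 0.00022). Scarb2 measured 253, 281 and 280 CPM in ALDR and 196, 192 and 177 CPM in DRAL (0.53 ± 0.10, adjusted p = 0.0054). Neither gene's groups overlapped.

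Man2b1 measured 146, 166 and 167 CPM in ALDR and 119, 117 and 102 CPM in DRAL (0.51 ± 0.11, adjusted p = 0.0091), and Hgsnat 99.4, 104 and 97.3 CPM against 67.9, 76.2 and 77.3 CPM (0.44 ± 0.10, adjusted p = 0.011). Proteases were higher in 4 of 8 cases, namely Ctsa (0.39), Ctsz (0.38), Tpp1 (0.61), a tripeptidyl peptidase, and Ctsk (1.00, at 2.36 CPM or less). Ids (0.84) was called although 1 library of each group stood at 10.4 CPM.

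The 2 lower genes were Sgsh, at 5.46, 4.23 and 4.03 CPM in ALDR and 8.58, 9.62 and 8.41 CPM in DRAL (-0.96 ± 0.17, adjusted p = 0.0039), and Gla, at 7.54, 9.92 and 7.43 CPM against 16, 12.4 and 16.2 CPM (-0.84 ± 0.17, adjusted p = 0.0069). Hepatocyte markers were higher in ALDR in 3 of 8 cases, with summed levels of 75097 to 87048 CPM against 61122 to 69427 CPM, and macrophage markers in 1 of 10 (Cd14). Of 7 lipid-associated macrophage markers Gpnmb (3.05) and Atp6v0d2 (0.91) were higher and Spp1 (-0.66) was lower. The Kupffer cell marker Marco (2.68, 1 of 5), the fibroblast marker Dcn (0.45, 1 of 6) and the nuclear RNAs Neat1 (0.71) and Malat1 (0.43) were higher. Of 7 stress and immediate early genes 3 were higher as well, Hspa1b (1.29), Jun (1.46) and Egr1 (2.77). Of 8 epithelial markers 2 were lower, Krt8 (-1.11) and Krt18 (-1.06), while Krt5, Krt14 and Csn3 were at 0 in all liver libraries, and the list summed to 197 to 275 CPM against 458 to 520 CPM. With the macrophage score as a covariate 8 genes were called, 6 higher and 2 lower, beside 18.54% of all genes. With the score of the Y-linked genes as a covariate 13 were called, 11 higher and 2 lower, beside 24.1% of all genes. The part of the other lists in the result was not tested. The score was 5.58 ± 0.04 (n = 3) in ALDR and 5.39 ± 0.05 (n = 3) in DRAL, a difference of 0.18 that was 0.026 with the median over the genes in place of the mean. With 1 library left out there were 6 to 10 calls, with 6 without DRAL library 3 and 7 without DRAL library 2 or ALDR library 3.

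**Figure D5:**
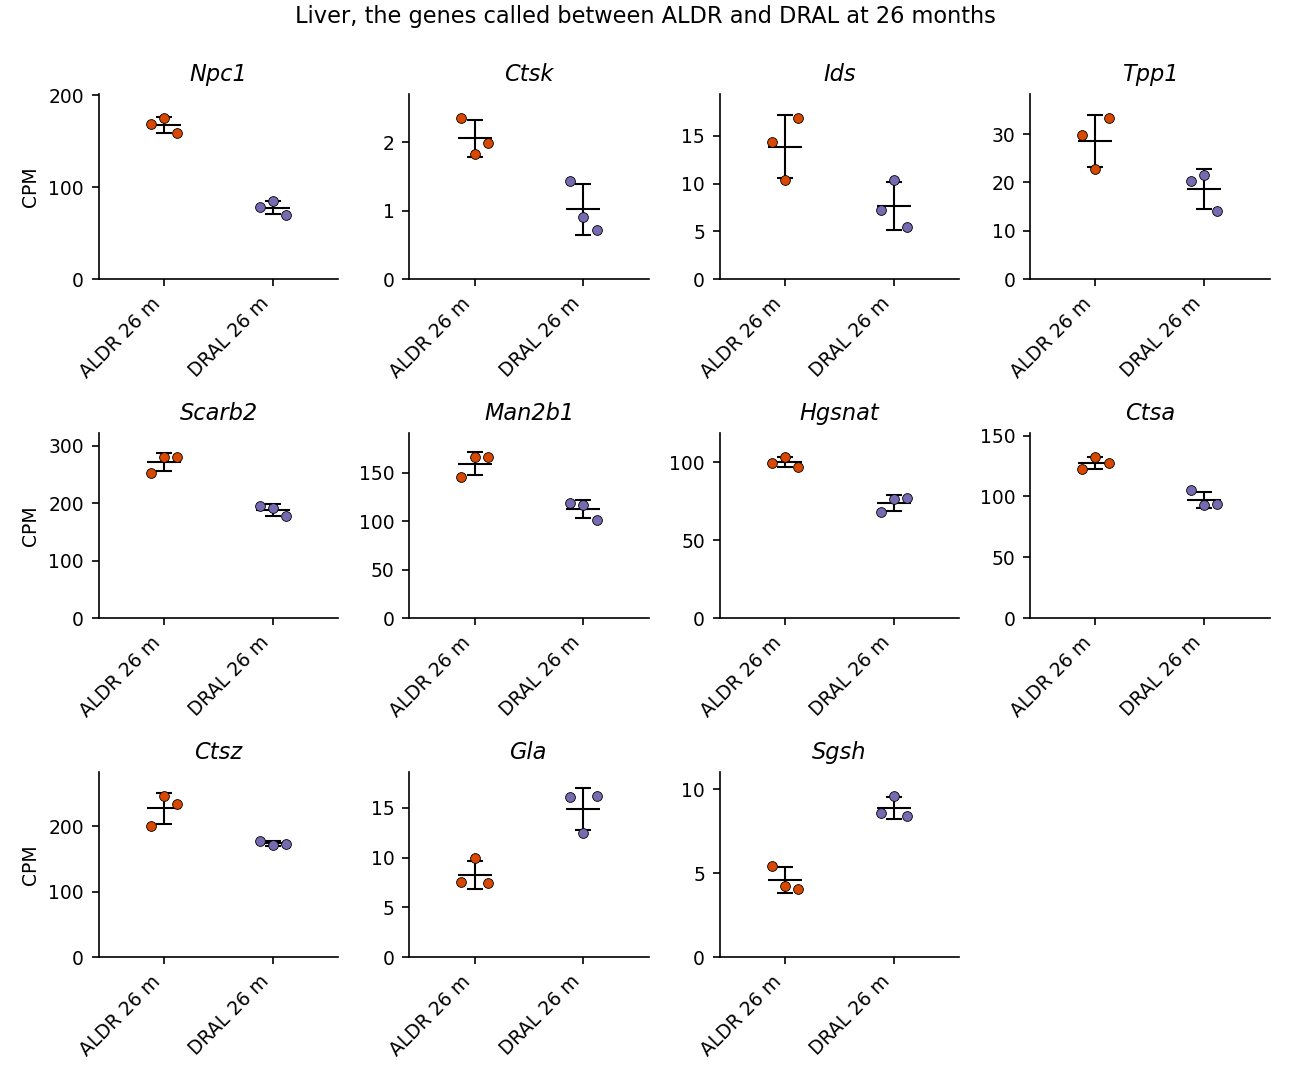
Level in CPM (y axis) of the 11 genes called in liver for each library (points) of ALDR and DRAL mice at 26 months, with the group mean and SD as bars. Npc1 shows 158 to 175 CPM in ALDR against 70 to 84.7 CPM in DRAL, and Sgsh and Gla are the 2 genes that are lower in ALDR.

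Other genes of the lysosomal pathway were read from lists outside the 37, and their counts stand beside the shares of all genes called. In WAT of old DR mice, where 12.5% of all genes were lower and 13.5% higher, 9 of 20 other hydrolases were lower and 0 higher (median -0.30), among them Pla2g15, a phospholipase (-1.28 ± 0.15), and Lgmn, legumain (-1.61 ± 0.28). Of 16 proton pump subunits 2 were lower, Atp6v1b2 (-0.84) and Atp6v1a (-0.40), and 1 higher, Atp6v1d (0.46). Of 9 mannose 6-phosphate sorting genes Sort1, a sorting receptor, was higher (0.70) and Nagpa, the uncovering enzyme, lower (-0.41). Of 16 other membrane and transport genes 1 was higher and 2 were lower.

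In the same mice, of 18 regulators 4 were higher and 2 lower, with Ppargc1a at 1.83 ± 0.39, Zkscan3, a repressor of autophagy genes, at 0.68 ± 0.12 and Fnip2 at -0.85 ± 0.19. Of 18 autophagy genes 3 were higher and 0 lower, namely Map1lc3b (0.54), Wipi1 (0.72) and Vps11 (0.31), a share near that of all genes. In the switched mice, where 1.19% of all genes were lower, Atp6v0c (-0.56 ± 0.09, adjusted p = 0.0024) and the autophagy gene Atg9a (-0.45 ± 0.08) were lower.

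In young BAT, where 7.2% of all genes were higher and 7.22% lower, 6 of 20 other hydrolases were higher and 0 lower, among them Scpep1 (0.47), Ctsf (0.57) and Plbd2 (0.38). Of 16 other membrane and transport genes 3 were higher, among them Cln6 (0.80) and Slc17a5 (0.79), and 1 was lower, Tpcn2, a channel of the endolysosomal membrane (-1.16 ± 0.16, adjusted p = 0.00033). Of 18 regulators 4 were lower, including Tfe3 (-0.33), and 1 was higher. In liver, where 10.9% of all genes were higher and 12.9% lower, 7 of 20 other hydrolases were higher and 3 lower in ALDR, with Hyal2 at 0.76 and Ctsc at -0.55. Of 16 proton pump subunits 5 were higher and 0 lower, with Atp6ap2 at 0.65 ± 0.10. Of 18 regulators 5 were higher, with Fnip1, a partner of folliculin, at 1.21 ± 0.11, and 2 of 9 sorting genes were lower, Sort1 (-0.81) and M6pr (-0.51).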

How the data were processed

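The authors deposited 3 tables of raw read counts per Ensembl gene, 1 per tissue, in whole numbers. Per the submitters' processing notes, Trim Galore 0.3.7, TopHat2 2.0.14, DESeq2 and genome build GRCm38 were used; the counting program, the annotation and any filter are not given in the sources used here, so overlapping genes may share reads. Symbols, coordinates and exon lengths came from GENCODE M21 (25012 of 25913 identifiers had a symbol). Libraries were grouped by the labels; BAT titles written ADRL were taken as ALDR from their descriptions.

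Each tissue's counts went through edgeR 4.0.16 under R 4.3.3 (filterByExpr, TMM, 1 quasi-likelihood fit over all groups, Benjamini-Hochberg over all genes tested, called under 0.05). The filter left 15828 WAT genes, 13845 BAT genes and 12761 liver genes. CPM used TMM-scaled library sizes, log2 CPM a prior count of 2, and log2 fold changes carry standard errors (SE). On simulated counts with lifelong restriction in WAT as the changed group, 63% of changes of 1 and 79% of changes of 2 on the log2 scale were recovered among 15661 genes, and 1.39% of calls were false. For the same groups in BAT these shares were 63% and 80.8% among 13708 genes, with 4.03% false. For ALDR against DRAL in liver they were 71.4% and 95.9% among 12626 genes, with 6.82% of calls false, above the 5% aimed at. Alternatives were DESeq2 1.42.0, other size factors, no filter, a replicate block, marker scores as covariates, the compared groups alone and leaving out libraries.

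The members and lists were chosen with earlier results of these data known. Up to 6 called members per comparison with the smallest adjusted p are named with library values, and Arsb always. The genes most like Arsb were the 5 with a non-provisional symbol and the highest Pearson r. Some genes of the pathway lists are not reported here.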

Additional observations from a re-analysis of the deposited data

Results flagged for a closer look

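In BAT the fifth ALDR library at 26 months stood apart from the other 4 in 5 genes and in the lysosomal score. In log2 CPM it was high for Ctsa at 6.86 (others 6.08 to 6.30), Ctsl at 7.37 (6.86 to 6.97), Gm2a at 7.03 (6.18 to 6.35) and Cln3 at 4.65 (3.75 to 3.90), and low for Npc2 at 8.16 (8.74 to 8.85). Its lysosomal score was 6.14 (others 5.85 to 5.91), and its epithelial score of 6.39 was the highest of the BAT libraries. The part of that in these values was not tested. In the same group the first library was high for Sgsh at 4.34 (4.04 to 4.12).

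In WAT the fourth DRAL library was low for Sgsh at 4.54 (others 4.95 to 5.10) and for Gaa at 6.27 (6.79 to 6.996). In all, 9 of 114 groups of 5 libraries had a library this far from the rest, where chance alone gives about 1 in 20.

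The response of Arsb in WAT to restriction (ALDR against AL) at 26 months minus that at 5 months was -2.04 on the log2 scale. This difference holds the values that chose Arsb, and it missed the threshold without the libraries with other-tissue markers (-2.19). Other genes had estimates of opposite sign in WAT and BAT with no overlap between groups, and these differences between tissues were not tested. They were picked for that pattern, and how often it occurs over all genes was not counted. For lifelong restriction the WAT minus BAT difference was -0.52 for Glb1 (-0.33 in WAT, 0.19 in BAT). For DRAL against DR it was 0.37 for Glb1 (0.21 and -0.15) and 0.63 for Asah1 (0.41 and -0.22). For restriction in young mice it was -1.03 for Hexa (-0.30 and 0.73) and -0.71 for Ctsl (-0.41 and 0.31). Glb1 and Asah1 were called in these comparisons in WAT but not in BAT. In young mice Hexa was called in BAT only, and Ctsl in neither tissue.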

How the results depend on the processing

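Counts of the 37 genes called changed with these settings, and the cause was not tested. With the macrophage score as a covariate the WAT counts were 0 for DR against AL, 1 each for ALDR and DRAL against AL or DR, 4 for ALDR against DRAL, 7 in young mice and 1 for switched against unswitched. Signs reversed there for Hexa (0.12), Ctsa (0.13) and Asah1 (0.33) in DR against AL, and for Gla (-0.18), Hexa (-0.10), Man2b1 (-0.089) and Asah1 (-0.12) in DRAL against DR. With the muscle score the WAT counts were 10 for DR against AL, 1 for DRAL against DR, 8 for DRAL against AL, 0 for ALDR against DRAL and 1 for switched mice, and the BAT counts 2 for DR against AL and 2 for DRAL against DR. Without the libraries with the highest other-tissue scores, chosen after seeing the data, WAT gave 0 for ALDR against DRAL. Comparisons with old AL or DR mice had 1 AL and 1 DR library left there, and that DR library still had a muscle score of 5.07. BAT libraries with muscle scores up to 7.39 were kept. With only the groups compared WAT gave 1 each for ALDR against AL, DRAL against AL and switched mice and 0 for ALDR against DRAL, and BAT gave 1 for ALDR against DR. DESeq2 gave 10 for DRAL against AL, 5 for ALDR against DRAL and 5 for age in WAT, and 2 each in BAT for ALDR against DRAL, the age difference and switched mice. Other size factors gave 1 and no filter gave 1 for ALDR against DRAL, and no filter gave 1 for switched mice.

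Libraries with the same replicate number did not deviate together on average (mean r 0.003 in WAT, -0.025 in BAT, -0.19 in liver). Single pairs ran from -0.65 to 0.58 in WAT, and liver had 3 pairs. Such a mean cannot decide whether some libraries share a batch or are paired, and the labels do not say what the number stands for. With that number as a block the counts were 1 for ALDR against AL, 1 for DRAL against AL, 2 for age and 1 for switched mice in WAT, 1 for ALDR against DR and 14 in young mice in BAT, and 6 in liver. With the genes' median as the score, the score difference was -0.26 (WAT) and 0.15 (BAT) for DR against AL, 0.11 in young BAT, -0.10 for switched mice in BAT and 0.026 in liver. Leaving out 1 library gave, in WAT, 14 to 17 for DR against AL, 1 to 6 for ALDR against AL, 6 to 12 for ALDR against DR, 7 to 15 for DRAL against DR, 1 to 8 for DRAL against AL, 0 to 7 for ALDR against DRAL, 10 to 14 in young mice, 0 to 4 for age and 1 to 2 for switched mice. In BAT it gave 2 to 4 for DR against AL, 1 to 5 for ALDR against DR, 2 to 3 for DRAL against DR, 0 to 2 for ALDR against DRAL, 4 to 7 in young mice and 0 to 1 for the age difference, and in liver 6 to 10. Of the alternative values of the genes called in each comparison and of Arsb, 1316 kept their side of the threshold, 397 lost the call and 2 gained it. Another 7 reversed after a call. Sign changes of Arsb where it had not been called are counted in the 1316. Its WAT estimate for DR against AL, for example, ran from -0.08 to 0.77. Depth limits genes near the floor of 3 counts, which none of the 37 reached in fat.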
